A study of Homo sapiens with 8 samples.

Results

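Integrins and cadherins are the main receptor families with which cells hold on to the extracellular matrix and to each other. The members were the genes whose symbol is that of a numbered integrin alpha or beta subunit (ITGA or ITGB), of a numbered cadherin (CDH) or of a desmosomal cadherin (DSC or DSG), matched by name in both count tables. They numbered 50 of 60664 genes, with 8 integrin beta subunits, 12 integrin alpha subunits, 23 cadherins and 7 desmosomal cadherins. The cells were HEK293T, an established line from human embryonic kidney, expressing APEX2, an engineered peroxidase that tags RNA close to it with biotin. The enzyme sat in the nucleus (NLS) in 4 libraries and at the outer mitochondrial membrane (OMM) in 4, and each compartment had 2 labelled libraries and 2 unlabelled controls, 8 in all. Controls measure RNA recovered without labelling, not whole-cell RNA. Each comparison therefore asks which receptor RNAs took a larger or smaller share of the library when the enzyme was active at that site.

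A SMARTer total RNA kit was used for the NLS libraries (titled ribominus), and a TruSeq mRNA kit, which selects poly(A) RNA, for those of OMM (titled trizol). Compartment, kit and RNA selection cannot be told apart. No label states that the 2 libraries of a group were separate cultures. The p-values therefore reflect library-to-library spread alone, and this may be technical. Total counts were 8039176 to 21096586 at NLS and 34705126 to 52421161 at OMM, and the labelled NLS libraries were shallower than both of their controls. Of 8 genes typical of the HEK293 line, all were tested at NLS and 6 fell. Their summed level was 691 to 748 CPM (counts scaled to library size) in the NLS controls and 183 to 225 CPM in the labelled NLS libraries, against 629 to 699 and 628 to 697 CPM at OMM. Of the marker genes of other cell types, those of endothelium were at 0 in every OMM library and at most 2.94 CPM in sum at NLS, and those of platelets were at 0 at OMM and at most 0.934 CPM at NLS. Leukocyte markers summed to 3.62 to 5.03 CPM at NLS, and at OMM to 1.44 to 4.40 CPM in the controls and 6.71 to 8.57 CPM after labelling. Fibroblast markers summed to 4.88 to 10.2 CPM at NLS, and at OMM to 13.01 to 26.5 CPM in the controls and 1.57 to 6.09 CPM after labelling. Their part in the results was not tested.

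An integrin is a pair of an alpha and a beta subunit, which together bind matrix proteins outside the cell and, through talin and kindlin, actin inside it. Classical cadherins bind a like molecule on the next cell and hold beta-catenin and p120-catenin on the inner side, while desmogleins and desmocollins bind plakoglobin and desmoplakin and so reach the intermediate filaments. Nearly all of these receptors span the membrane. Nearly all start with a signal peptide that sends the ribosome and its mRNA to the endoplasmic reticulum, which touches mitochondria at many places.

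The first 90 coding bases of the 5 members that DESeq2 called higher at OMM are shown, because the signal peptide is encoded there. The main test, by edgeR, called DSC3 alone of these 5, with adjusted p values of 0.12 to 0.15 for the others. No share of all genes by DESeq2 is given here. The bases were read from GENCODE 29 transcripts (GRCh38), 5′ to 3′, with the start codon in capitals.

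ITGB1: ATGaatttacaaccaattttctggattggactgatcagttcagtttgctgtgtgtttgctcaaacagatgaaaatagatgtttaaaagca

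ITGA6: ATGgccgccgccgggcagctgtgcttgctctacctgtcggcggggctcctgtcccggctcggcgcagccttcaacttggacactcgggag

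CDH2: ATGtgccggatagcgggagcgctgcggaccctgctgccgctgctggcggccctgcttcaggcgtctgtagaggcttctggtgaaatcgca

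DSG2: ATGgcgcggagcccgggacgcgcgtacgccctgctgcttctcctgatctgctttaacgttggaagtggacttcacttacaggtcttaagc

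DSC3: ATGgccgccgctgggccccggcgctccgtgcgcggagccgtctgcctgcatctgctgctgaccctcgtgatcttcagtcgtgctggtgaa

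T made up 34.4% of this stretch in ITGB1, 25.6% in DSG2, 22.2% in DSC3, 21.1% in CDH2 and 20.0% in ITGA6. Its median was 25% over all 50 members and 20.0% over 19680 protein-coding genes, where percentiles 10 and 90 were 12.2% and 30.0%. The members were also longer than the usual gene, with a median of 6278 exonic bases against 4226 and a median span of 88280.5 bases against 27134.5, and their median GC content was 45.1% against 49.1%. These are descriptions of the annotation and were not tested.

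Many members had few or no counts in these libraries. CDH6 and CDH19 had no count in any library, which, depending on the library, allows up to between 0.142 and 0.373 CPM (NLS) or between 0.0572 and 0.0864 CPM (OMM). These bounds use the unscaled library totals, unlike the other CPM values. At least 1 count was found for 48 members at NLS and for 29 at OMM, and a count in every library for 29 at NLS and 16 at OMM. After the filter on low counts, 27 members were tested at NLS, 22 at OMM and 20 in both. The tests took in 5 beta subunits, all 12 alpha subunits, 7 cadherins and 3 desmosomal cadherins at NLS, and 3, 10, 6 and 3 of them at OMM. ITGA10, ITGA11, ITGB2, ITGB4, ITGB8, CDH18 and CDH26 were tested at NLS only, and ITGB3 and CDH4 at OMM only.

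The other 21 members passed in neither compartment. Summed over the 8 libraries, CDH5, the cadherin of endothelium, had 1 count, ITGB6 had 2, CDH22 had 3, and DSC1, CDH11 and CDH20 had 6 each. DSG4 had 8 counts, CDH15, CDH16 and CDH17 had 11 each, CDH13 had 12, CDH8 had 13 and ITGB7 had 18. CDH10 had 22 counts, CDH9 had 23, DSG3 had 30, DSG1 had 33, CDH3 had 34 and CDH7 had 69. The desmogleins DSG1 and DSG3, which belong to the outer layers of skin and mucosa, and CDH9 had counts in the NLS controls alone. CDH7 owed most of its counts to 1 OMM control, at 1.67 CPM.

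**Figure D1:**
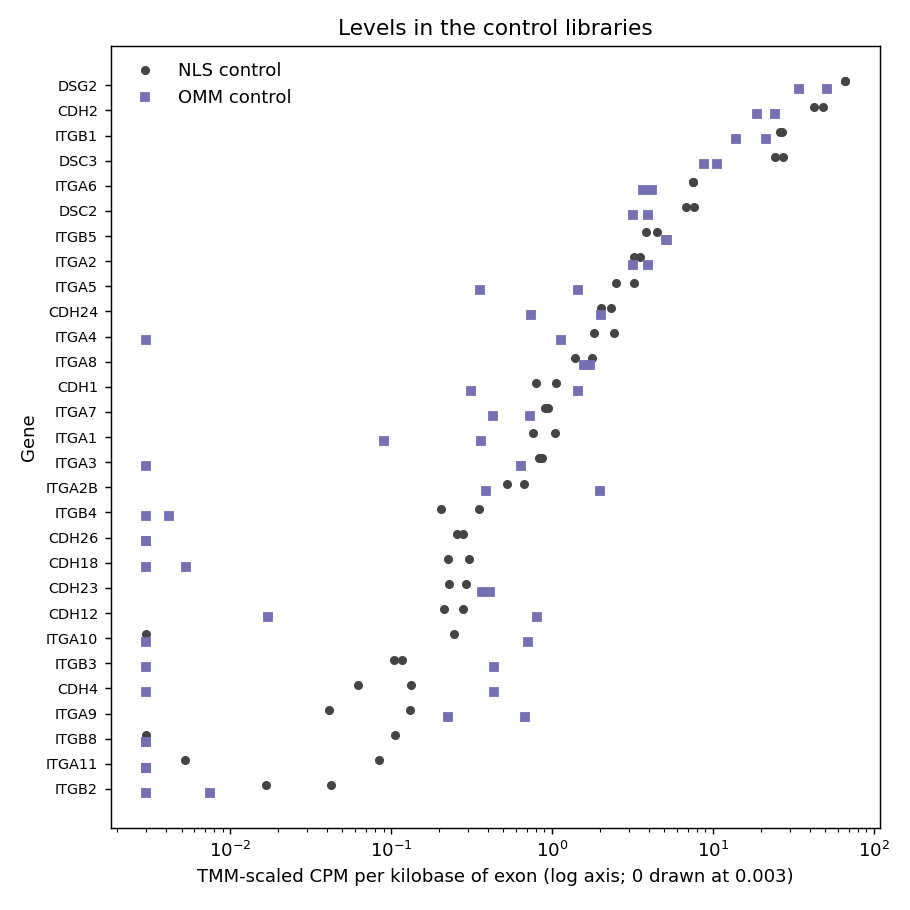
Level of each tested member in the control libraries as CPM per kilobase of exon (log axis), 1 point per library, ordered by the mean of the NLS controls, with a library at 0 drawn at 0.003. DSG2, CDH2, ITGB1 and DSC3 stand above the rest in both compartments, and many members below them have an OMM control at 0.

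Per kilobase of exon, the highest control levels at NLS were those of DSG2 at 66.6 CPM per kb and CDH2 (N-cadherin) at 45.5 CPM per kb. ITGB1, the beta subunit that most alpha subunits can pair with, followed at 26.6 CPM per kb beside DSC3 at 25.9 CPM per kb, and those values did not differ beyond the spread between the control libraries. ITGA6 at 7.57 and DSC2 at 7.26 CPM per kb came next and overlapped each other. In the OMM controls the levels were 42.6 CPM per kb for DSG2, 21.6 for CDH2, 17.8 for ITGB1 and 9.73 for DSC3. CDH2 and ITGB1 overlapped there. CDH1 (E-cadherin) stood at 0.932 CPM per kb in the NLS controls, far under CDH2.

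In the nucleus, the more abundant receptors were recovered in smaller shares after labelling, and a few low ones in larger shares. Of 27 tested members, 3 rose (ITGA2B, ITGA7 and CDH26), 11 fell (ITGB1, ITGB5, ITGA2, ITGA4, ITGA5, ITGA6, CDH1, CDH2, DSC2, DSC3 and DSG2) and 13 did not pass an adjusted p of 0.05 in edgeR's quasi-likelihood test. Among all 20858 genes tested at NLS, 57.3% passed, with 28.8% higher and 28.5% lower. The labelled libraries lay above both controls for 11 members and below both for 12, where 45.1% and 37.7% of all genes did so. The median log2 fold change of the members was 0.08, beside 0.14 for all tested genes. With libraries scaled by their totals alone, the median of all genes moved to 0.66 and that of the members to 0.59. Under that scaling 9 members were called higher and 6 lower. The share of all genes called under it is not given here, so these 2 counts stand without a background.

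Among the tested members, the direction at NLS went with the level. Of the 12 members averaging at least 10 CPM over the 4 NLS libraries, 10 fell and 0 rose in edgeR's test (0 also at an unadjusted p under 0.05 and by DESeq2), with a median log2 fold change of -0.96. Among all 11141 genes at that level, 47.7% fell and 23.1% rose, with a median of -0.33. Of the 15 members under 10 CPM, 3 rose and 1 fell, with a median of 0.86, beside 35.3% and 6.48% and a median of 1.26 among 9717 genes. The same contrast between high and low genes was present over all genes, which passed the same filter. The split is not independent of that filter. ITGB2, ITGB8, ITGA9 and ITGA10 passed it only through their labelled libraries, with ITGB2 at 2 and 5 counts in the controls against 10 and 9. DSG1, DSG3 and CDH9, with counts in the controls alone, did not pass.

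At the outer mitochondrial membrane, most receptors had higher values after labelling but the spread between libraries was large. Of 22 tested members, 19 had a positive log2 fold change and their median was 0.97, while the median of all 14438 tested genes was -0.0017 and 49.9% of them were positive. Only DSC3 passed the adjusted threshold in edgeR's test, where 0.194% of all genes passed, 0.139% higher and 0.0554% lower. No member was called lower by edgeR or by DESeq2, and at an unadjusted p under 0.05 the counts were 5 higher and 0 lower, where 5.94% of all genes were higher and 4.62% lower. Both labelled libraries exceeded both controls for 10 members (ITGB1, ITGB5, ITGA1, ITGA4, ITGA5, ITGA6, ITGA8, CDH2, DSC3 and DSG2), and both fell short of both controls for 1 (ITGA2B). The same separation held for 21.3% and 22.5% of all genes.

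At OMM the split by level was as follows. All 12 members averaging at least 10 CPM had positive values, 10 of them without overlap (83.3%), and their median was 1.27. Of the 9993 genes at that level 51.5% were positive, 24.9% were above without overlap, and the median was 0.03. Of the 10 members under 10 CPM, 7 were positive, 0 lay above both controls and 1 below, beside 46.5% positive, 13.3% above and 21.6% below among the 4445 genes at that level. The split is not independent of the change, because ITGA1, ITGA4 and ITGA5 reach 10 CPM only through their labelled libraries. With the level taken from the controls alone, a choice made after seeing the data, 9 members had at least 10 CPM. All 9 were positive and 7 lay above both controls, where 47.6% and 22.3% of all such genes did so. Of the 13 members below that level 10 were positive, 3 lay above and 1 below. Among all 4540 genes below it, 55.0% were positive, 19.2% lay above and 16.4% below. A count of 0 in 1 library of a pair occurred for 6 of the 22 members.

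**Figure D2:**
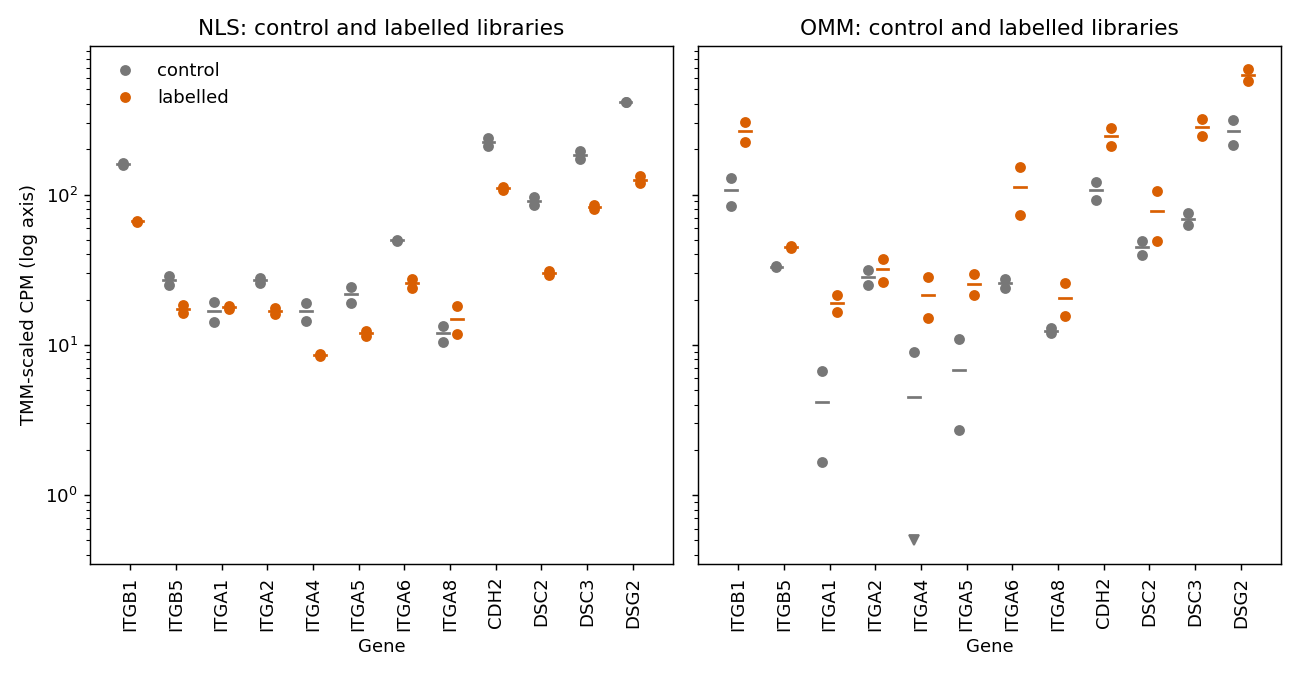
CPM on a log axis for the 12 members with at least 10 CPM, 1 dot per library and a bar at the mean of each pair, grey for controls and orange for labelled libraries, with a count of 0 drawn as a triangle at the bottom. At NLS 10 genes sit lower in the labelled libraries, ITGA1 and ITGA8 overlap, and at OMM 10 of the same 12 genes sit higher without overlap.

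Among the beta subunits, ITGB1 showed the pattern most plainly. ITGB1 (chr10:32900319-33005792, minus strand, GRCh38) had 158 and 162 CPM in the NLS controls and 67.1 and 65.8 CPM in the labelled libraries. It fell by 1.27 ± 0.10 (SE, n = 2 per group) on the log2 scale, with an edgeR adjusted p of 3.26e-05. At OMM it had 129 and 84.4 CPM in the controls and 304 and 225 CPM after labelling, with no overlap. That log2 fold change was 1.31 ± 0.30, and edgeR's adjusted p was 0.15.

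ITGB5, which pairs with the alpha V subunit as a vitronectin receptor, had 24.96 and 28.9 CPM in the NLS controls and 18.5 and 16.2 CPM after labelling. It fell by 0.63 ± 0.18 on the log2 scale (edgeR adjusted p 0.0161), a call that was lost without the third labelled library (0.131), with libraries scaled by totals alone (0.588) and with DESeq2 (0.066). At OMM its controls had 33.5 and 32.9 CPM and its labelled libraries 44.1 and 45.3 CPM, a log2 fold change of 0.43 ± 0.42 (edgeR adjusted p 0.837). The alpha V partner, ITGAV, has no numbered symbol and is no member. It fell at NLS from a mean of 77.6 ± 7.12 to 50.8 ± 0.805 CPM (SD, n = 2) and stood at 46.7 ± 12.7 and 165 ± 5.45 CPM at OMM, where edgeR's adjusted p was 0.0776. Of the 6 alpha subunits with a letter in place of a number, the only other one tested was ITGAE, which had 17.5 and 22.9 CPM in the NLS controls and 16.96 and 23.7 CPM after labelling. ITGAE lay below both controls at OMM, with 36.7 and 38.2 CPM against 32.5 and 18.4 CPM, and passed neither test.

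The remaining tested beta subunits were low, and none passed edgeR's test. ITGB2, the leukocyte subunit, had 0.114 and 0.288 CPM in the NLS controls and 0.883 and 0.934 CPM after labelling, and ITGB8, an activator of TGF-beta, had 0 and 1.61 against 2.30 and 2.39 CPM. ITGB4, the hemidesmosome subunit, ran the other way at NLS with 2.40 and 1.38 against 0.353 and 1.04 CPM. At OMM these 3 genes had at most 0.0514 CPM in any library. ITGB3, the platelet and alpha V partner, had at most 0.727 CPM in any NLS library, and at OMM 1.93 and 0 CPM in the controls against 6.37 and 0.358 CPM. Of its exonic bases, 51.6% overlap another annotated gene, AC068234.1, so its counts are uncertain.

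Among the alpha subunits that bind laminin, ITGA6 was the most abundant. ITGA6 (chr2:172427354-172506282, plus strand) had 49.6 and 49.4 CPM in the NLS controls and 23.9 and 27.3 CPM after labelling, a fall by 0.95 ± 0.14 on the log2 scale (edgeR adjusted p 0.000712). At OMM it had 27.2 and 24.0 CPM in the controls and 152 and 72.7 CPM in the labelled libraries. The lower labelled value was well above both controls, but the labelled libraries differed from each other by more than the lower one exceeded the controls. The log2 fold change there was 2.13 ± 0.43, with an edgeR adjusted p of 0.129. ITGA3 had 8.57 and 8.12 CPM in the NLS controls and 12.5 and 10.3 CPM after labelling, which did not pass the test (edgeR adjusted p 0.156), and at OMM 1 library of each pair was at 0.

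ITGA7, the laminin receptor subunit of muscle, was 1 of the 3 members that rose at NLS. It had 5.998 and 5.76 CPM in the controls and 11.8 and 9.55 CPM after labelling, a log2 fold change of 0.86 ± 0.27 (edgeR adjusted p 0.0269). The call was lost without the first labelled library (0.327), without the third (0.115) and with DESeq2 (0.0718). At OMM its controls had 4.68 and 2.74 CPM and its labelled libraries 15.7 and 3.89 CPM, which overlapped. Summed muscle markers, measured alongside, were 1.26 to 1.44 CPM in the NLS controls and 3.27 to 3.74 CPM after labelling, with 1 of 4 genes tested, and their part in the ITGA7 value was not tested.

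ITGA5 and ITGA4, which bind fibronectin, fell at NLS. ITGA5 had 19.0 and 24.4 CPM in the controls and 11.4 and 12.5 CPM after labelling, with a fall by 0.87 ± 0.21 on the log2 scale (edgeR adjusted p 0.00881). ITGA4, which also binds VCAM-1, had 19.1 and 14.4 against 8.66 and 8.41 CPM, with a fall by 0.98 ± 0.24 (edgeR adjusted p 0.00913). Both calls were lost under scaling by totals alone, at 0.183 and 0.137, ITGA5 also without the first labelled library (0.0588) and ITGA4 without the third (0.0593). At OMM the order was turned in each: ITGA5 had 11.004 and 2.71 CPM in the controls and 29.6 and 21.5 CPM after labelling. ITGA4 had 9.02 and 0 CPM in the controls there and 28.1 and 15.1 CPM after labelling. The wide spread of those controls goes with log2 fold changes of 1.90 ± 0.87 and 2.26 ± 1.89 and edgeR adjusted p values of 0.503 and 0.782.

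The collagen-binding alpha subunits did not share a direction. ITGA2 had 25.8 and 28.0 CPM in the NLS controls and 16.1 and 17.5 CPM after labelling, a fall by 0.68 ± 0.17 on the log2 scale (edgeR adjusted p 0.00993). That call was lost without the first labelled library (0.0825) and under scaling by totals alone (0.439). At OMM the same gene had 25.1 and 31.5 against 26.3 and 37.3 CPM, which overlapped (0.17 ± 0.49, edgeR adjusted p 0.988). ITGA1 stayed within its controls at NLS, with 19.4 and 14.3 against 17.3 and 18.3 CPM (0.08 ± 0.21, edgeR adjusted p 0.774). At OMM it had 1.67 and 6.72 CPM in the controls and 16.6 and 21.4 CPM after labelling, the log2 fold change being 2.18 ± 1.08 with an edgeR adjusted p of 0.531. Under scaling by totals alone, ITGA1 was called higher at NLS (0.0444). ITGA10 and ITGA11 were low, with at most 3.97 CPM at NLS, and did not pass the test.

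ITGA8, a receptor of nephronectin in the kidney, had 13.4 and 10.5 CPM in the NLS controls and 18.02 and 11.7 CPM after labelling, with overlap (0.32 ± 0.27, edgeR adjusted p 0.332). It was called higher at NLS under scaling by totals alone (0.0278) and without the first control library (0.0284). At OMM it had 12.98 and 11.9 CPM against 25.6 and 15.6 CPM (0.73 ± 0.70, edgeR adjusted p 0.833). ITGA9 had 0.343 and 1.09 CPM in the NLS controls and 2.91 and 2.60 CPM after labelling, which did not pass (edgeR adjusted p 0.0636). At OMM its values were 1.88 and 5.65 against 9.75 and 3.03 CPM.

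ITGA2B, the alpha subunit of the platelet fibrinogen receptor, rose at NLS and was the 1 member below both controls at OMM. It had 3.71 and 2.94 CPM in the NLS controls and 6.36 and 8.20 CPM after labelling, a log2 fold change of 1.13 ± 0.36 (edgeR adjusted p 0.0281). The call was lost without the first labelled library (0.134), without the third (0.324) and with DESeq2 (0.0637). At OMM it had 2.16 and 11.1 CPM in the controls and 1.89 and 0 CPM after labelling, a log2 fold change of -2.80 ± 3.12 with an edgeR adjusted p of 0.887. Platelet markers summed to 0 to 0.0576 CPM in the NLS controls and 0.265 to 0.934 CPM after labelling, and to 0 in every OMM library.

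Of the classical cadherins, CDH2 was the abundant one. CDH2 (chr18:27950966-28177446, minus strand) had 239 and 211 CPM in the NLS controls and 113 and 108 CPM after labelling. It fell by 1.03 ± 0.10 on the log2 scale (edgeR adjusted p 9.6e-05). At OMM it had 121 and 92.7 CPM in the controls and 278 and 211 CPM after labelling, with no overlap, a log2 fold change of 1.19 ± 0.27 and an edgeR adjusted p of 0.15. CDH1 had 6.57 and 4.95 CPM in the NLS controls and 2.47 and 0.934 CPM after labelling, a fall by 1.73 ± 0.52 (edgeR adjusted p 0.0225). The CDH1 call was lost without the third labelled library (0.199) and under scaling by totals alone (0.0786). At OMM CDH1 had 1.95 and 8.92 CPM against 8.52 and 11.8 CPM, which overlapped (0.90 ± 1.47, edgeR adjusted p 0.95). CDH4 (R-cadherin) had at most 0.979 CPM at NLS, and at OMM 1 library of each pair was at 0.

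CDH26 had the largest called log2 fold change among the members at NLS, in the direction opposite to CDH2. It had 1.49 and 1.61 CPM in the NLS controls and 11.9 and 10.6 CPM after labelling, a log2 fold change of 2.86 ± 0.34 (edgeR adjusted p 0.000238). It was called under each of the 11 alternative settings run at NLS, with log2 fold changes of 2.73 to 3.37. At OMM it was at 0 in 3 libraries and at 2.34 CPM in 1 labelled library, so it was not tested there.

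The other cadherins tested did not pass. CDH23, the hair-cell tip-link cadherin, had 5.43 and 4.26 CPM in the NLS controls and 7.60 and 7.89 CPM after labelling (edgeR adjusted p 0.1), and 18.9% of its exonic bases overlap C10orf105. CDH24 had 7.60 and 8.75 against 10.3 and 10.7 CPM, and CDH12, a neural cadherin, 1.66 and 1.27 against 2.74 and 2.91 CPM, both above their controls. CDH18 overlapped its controls at NLS, with 1.49 and 1.09 against 1.32 and 1.35 CPM. At OMM the labelled and control values of CDH12, CDH23 and CDH24 overlapped.

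All 3 tested desmosomal cadherins fell at NLS. DSG2, the desmoglein of simple epithelia (chr18:31498043-31549008, plus strand), had 412 CPM in both NLS controls and 132 and 119 CPM after labelling. It fell by 1.71 ± 0.10 on the log2 scale, with an edgeR adjusted p of 1.82e-05. At OMM DSG2 had 315 and 212 CPM in the controls and 679 and 565 CPM after labelling, with no overlap. The OMM log2 fold change was 1.24 ± 0.24, and edgeR's adjusted p was 0.12. Its antisense neighbour DSG2-AS1 overlaps 2.76% of the exonic bases.

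DSC3, a desmocollin (chr18:30990008-31042815, minus strand), had 194 and 171 CPM in the NLS controls and 80.7 and 85.2 CPM after labelling, a fall by 1.14 ± 0.10 on the log2 scale (edgeR adjusted p 6.96e-05). At OMM it went from 74.9 and 62.3 CPM to 320 and 244 CPM. This was a log2 fold change of 2.04 ± 0.26 with an edgeR adjusted p of 0.0384. The OMM call was lost when any 1 of the 4 libraries was left out, with adjusted p values of 0.079 to 0.267. It was also lost with a length or a GC trend removed, at 0.0513 and 0.0586. The log2 fold change stayed between 1.82 and 2.22 under all 10 alternatives.

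DSC2, its neighbour on the same strand (chr18:31058840-31102522), had 85.7 and 95.8 CPM in the NLS controls and 30.9 and 29.3 CPM after labelling, a fall by 1.59 ± 0.12 (edgeR adjusted p 3.49e-05). At OMM DSC2 had 39.9 and 49.3 CPM in the controls and 48.8 and 106 CPM after labelling. These overlapped, unlike DSC3 and DSG2, and the log2 fold change was 0.79 ± 0.45 (edgeR adjusted p 0.582). Keratinocyte markers, which would accompany a desmosome-rich cell type, summed to 14.7 to 16.6 CPM in the NLS controls and 2.70 to 4.42 CPM after labelling, and to 1.04 to 17.0 and 11.9 to 27.1 CPM at OMM. Only 1 of the 4 was tested, and their part in the desmosomal values was not tested.

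**Figure D3:**
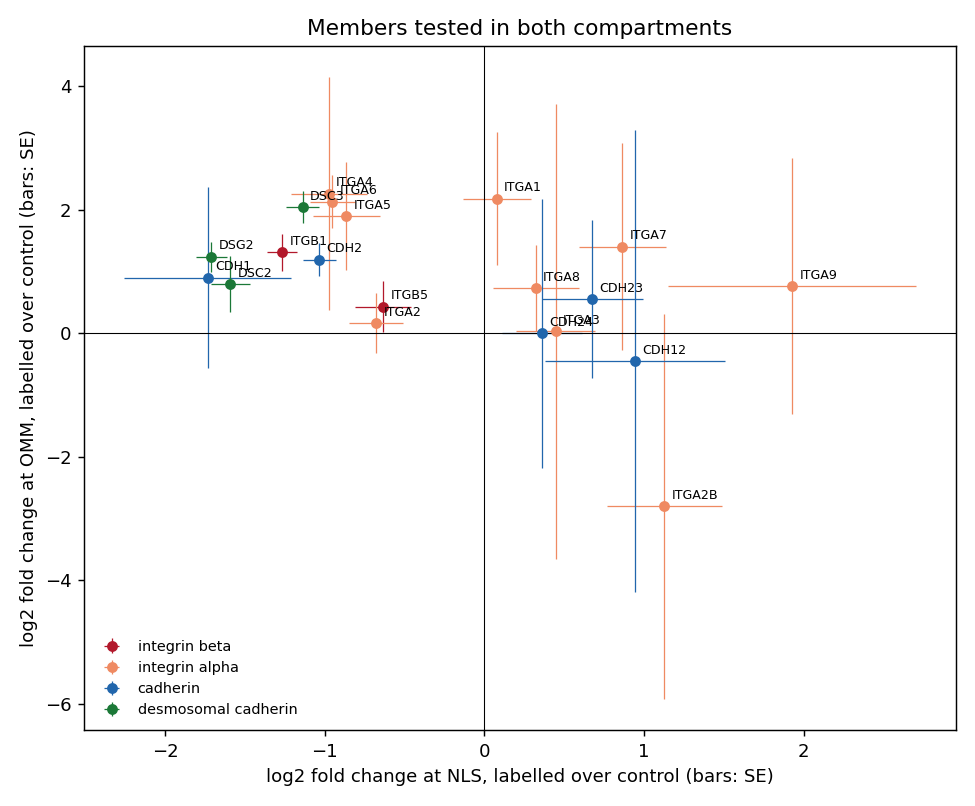
Log2 fold change of labelled over control at NLS (x axis) and at OMM (y axis) for the 20 members tested in both, with bars of 1 SE, coloured by family. The members that fell at NLS lie in the upper left, with positive OMM values and short bars for DSG2, DSC3, ITGB1 and CDH2, while the low members carry OMM bars several log2 units long.

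The difference between the labelling effects at the 2 sites was tested as an interaction in 1 model of all 8 libraries. Of the 36 members in that fit, 6 had a higher effect at OMM than at NLS and 0 a lower one by edgeR. Among all 23178 genes, 8.14% passed, 6.73% higher and 1.41% lower. At an unadjusted p under 0.05 by edgeR, 8 members were higher and 1 lower, beside 15.3% and 7.75% of all genes. These shares were not compared by a test. The 1 lower was CDH7, with 65 counts in 1 OMM control and 0 in the other OMM libraries. CDH9, CDH10, DSG1, DSG3, ITGA11, ITGB7 and ITGB8 were at 0 in every OMM library. Their SEs ran from 390 to 12739, so no difference could be estimated for them. The difference on the log2 scale was 3.20 ± 0.28 for DSC3 (edgeR adjusted p 0.00439), 2.97 ± 0.31 for DSG2 (0.00583) and 2.25 ± 0.30 for CDH2 (0.0103). It was 2.59 ± 0.36 for ITGB1 (0.0114), 3.11 ± 0.51 for ITGA6 (0.0181) and 2.40 ± 0.50 for DSC2 (0.0361). All 6 fell at NLS, so part of each difference is that fall. Without the first NLS control library all 6 calls were lost, with adjusted p values of 0.0665 to 0.172, and without the third NLS control likewise, at 0.0571 to 0.188. Without the third labelled NLS library 2 remained called, DSC3 and DSG2, and without the first the calls of DSC2 (0.119) and ITGA6 (0.0714) were lost. The DSC2 call held in only 6 of 14 alternatives. Beside those named, it was lost without either OMM control (0.0634 and 0.0548), under scaling by totals alone (0.109) and with DESeq2 size factors (0.0868).

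The authors' deposited table, made with another count model, gives an adjusted p for 37 members at NLS and 23 at OMM. The share of all genes that passed in it is not given here, so its counts of called members stand without a background. A single member (CDH26) is higher in the authors' deposited table at NLS and 12 are lower there, with 5 higher and 0 lower at OMM. The 12 leave out ITGB5 (authors' DESeq2 adjusted p 0.0671) and take in DSG1 (0.0349) and DSG3 (0.0454). DSG1 had 24 and 9 counts and DSG3 18 and 12 counts in the NLS controls, both with 0 after labelling. Neither passed the filter used here. The 5 in the authors' deposited table are DSC3, DSG2, ITGA6, CDH2 and ITGB1, with log2 fold changes of 2.05, 1.25, 2.14, 1.20 and 1.32.

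Partner genes of the receptors, taken from lists of background knowledge, were counted in the same fits, to be read against the 28.8% of all genes that rose and the 28.5% that fell at NLS. The lists were not compared with each other by a test. Of 38 tested integrin adaptors and focal adhesion genes, 4 rose and 11 fell at NLS, with a median log2 fold change of -0.10. The share that fell is near that of all genes. CRKL, an adaptor of focal adhesions, fell by 1.28 and TLN1 (talin, which links integrins to actin) fell by 1.17, while FERMT3, the kindlin of blood cells, rose by 4.12 and ITGB1BP2 by 2.16, all on the log2 scale. FERMT3 was near the floor, with 3 and 2 counts (0.171 and 0.115 CPM) in the NLS controls and 2.38 and 2.91 CPM after labelling. ITGB1BP2 had 3.60 and 0.460 CPM in the NLS controls and 7.68 and 10.6 CPM after labelling. At OMM 32 were tested, 10 lay above both controls and 4 below, and the median was 0.20.

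Of 11 tested catenin and desmosomal plaque genes, 2 rose and 7 fell at NLS, with a median of -0.54. CTNNB1 (beta-catenin) fell by 1.46 and JUP (plakoglobin) fell by 1.41, while ARVCF rose by 0.60 and AFDN by 0.27 on the log2 scale. At OMM the median of the 10 tested was 0.15, with 4 above both controls and 1 below. CTNNB1 there had 479 ± 34.8 CPM in the controls and 540 ± 35.9 CPM after labelling (SD, n = 2), a log2 fold change of 0.17 ± 0.18 with an edgeR adjusted p of 0.872.

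The remaining lists hold secreted and membrane partners. Of 30 tested matrix ligands of integrins, 7 rose and 10 fell at NLS (median -0.20). TNC (tenascin C) fell by 2.15 and NID1 (nidogen) fell by 1.5047, while TGFB2 rose by 2.01 and LAMC3 by 1.61 on that scale. TNC was low, with 24 and 66 counts (1.37 and 3.80 CPM) in the NLS controls and 6 in each labelled library (edgeR adjusted p 0.0459). At OMM 26 were tested, 16 lay above both controls and 1 below, and the median was 0.74. The shares of all tested genes, 21.3% above and 22.5% below, apply to each list. Of 24 other members of the cadherin superfamily, such as protocadherins and FAT proteins, 3 rose and 5 fell at NLS (median 0.15). PCDH20 fell by 1.61 and CLSTN1 fell by 0.82, while CDHR3 rose by 1.18 and PCDH9 by 0.54. At OMM 21 were tested, 15 lay above both controls and 0 below, and the median was 1.27, also with the 1 gene that has a group at 0 counts set to its bound. In each of the lists edgeR called 0 genes at OMM. At an unadjusted p under 0.05 by edgeR, the OMM counts were 3 higher and 1 lower for the adaptors and 0 and 0 for the catenins. They were 5 and 1 for the ligands and 5 and 0 for the other cadherins. DESeq2 called 4, 0, 6 and 7 higher in the same order, with 1 lower among the ligands and 0 in the other lists. No share of all genes by DESeq2 is given here.

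**Figure D4:**
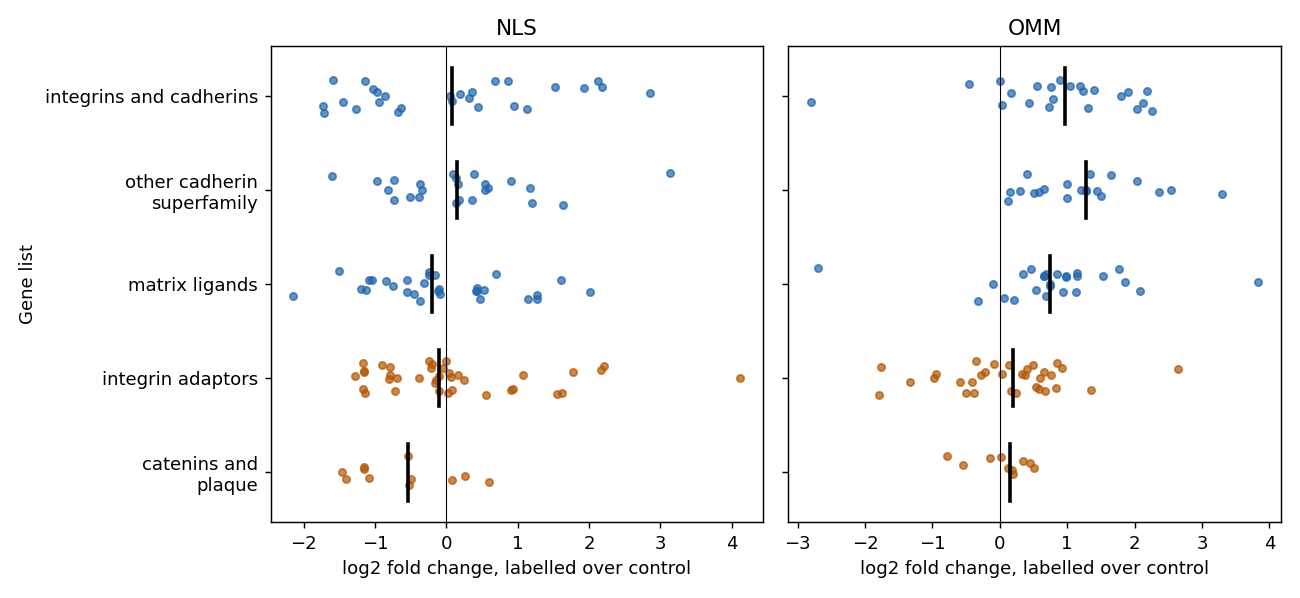
Log2 fold change of labelled over control for each tested gene (dots) and the median of each list (black bar), at NLS on the left and OMM on the right. Blue marks lists of membrane or secreted proteins, orange lists of mostly cytosolic partners, and 1 gene with a group at 0 counts is left out at OMM. At NLS every list straddles 0, and at OMM the medians of the blue lists shown lie between 0.74 and 1.27 and the orange ones at 0.15 and 0.20.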

How the data were processed

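RNA tagged by APEX2 was sequenced from 8 HEK293T libraries in 4 groups of 2. The authors deposited read counts per gene, and the submitters' processing notes name Trimmomatic, STAR, HTSeq, SAMtools, bedtools and DESeq2 with the builds GRCh38.p13 and hg38. Versions and the use of strand in counting were not given in the sources used here, so genes with overlapping or antisense neighbours are uncertain. A second table that the authors deposited holds log2 fold changes. It also holds the authors' p-value per gene, read here as an adjusted one. The adjusted p of DESeq2 rerun here was close to it but not equal for members such as ITGB5 (0.066 against 0.0671 at NLS). The series' description names Proteinase K (NLS) and TRIzol (OMM) for release of captured RNA and the sample labels an RNeasy kit, so that step is not settled. Columns were assigned to groups by name, and 4 count columns and 2 comparison columns that matched no sample were not used. Coordinates and overlaps come from GENCODE 29 (GRCh38), which holds 58396 of the 60664 identifiers.

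The robust quasi-likelihood F test of edgeR 4.0.16 (R 4.3.3, two-sided) was applied to the counts, separately at NLS and OMM. An interaction over all 8 libraries tested how the labelling effects differed between compartments. Genes passed filterByExpr (minimum count 10), fits used a prior count of 0.125, and Benjamini-Hochberg adjustment ran over every tested gene with a threshold of 0.05. CPM values use TMM-scaled library sizes, with factors of 0.826 to 1.20 at NLS and 0.936 to 1.05 at OMM. The SE equals the absolute log2 fold change over the root of the F statistic. A floor of 3 counts, taken over the library total without TMM scaling, bounds a count of 0. It covers counting error alone, because PCR copies cannot be told from separate molecules here. The scripts were tested on simulated counts. Alternatives were DESeq2 1.42.0, other scalings, no filter, removal of length or GC trends, a 2-fold minimum, a replicate block at NLS and each library left out.

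The members and the lists were chosen with earlier results of these data known. Every member that passed the filter is named. Full statistics are given for those called, or averaging at least 10 CPM in the controls of either compartment. From each list of partner genes at most the 2 highest and 2 lowest called genes at NLS are named. ITGAV, ITGAE and the OMM values of CTNNB1 were added after their values were seen.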

Additional observations from a re-analysis of the deposited data

Results flagged for a closer look

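For 6 members the labelling effect differed between the compartments by the interaction test, each with a higher log2 fold change at OMM than at NLS. The difference was 3.20 for DSC3, 3.11 for ITGA6, 2.97 for DSG2, 2.59 for ITGB1, 2.40 for DSC2 and 2.25 for CDH2. The call of DSC2 held in 6 of 14 alternatives, and all 6 calls were lost without either NLS control. The NLS and OMM libraries were made with different kits, so compartment and kit cannot be told apart. Groups of 2 libraries are too small for a test of single libraries that stand apart.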

How the results depend on the processing

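At NLS, 14 members were called. A 2-fold minimum left 8, 6 of them lower. Scaling by totals alone gave 9 higher and 6 lower, DESeq2 gave 1 higher, and leaving out a library gave 9 to 20 calls with 1 to 9 higher. The NLS median log2 fold change turned to -0.0597 with a length trend removed and ran from -0.13 to 0.26 when a library was left out. At OMM, DESeq2 called 5 members, all 5 higher, and so did edgeR with no filter. The shares of all genes given above are those of the main edgeR fits and are no background for the other settings. Removal of a length trend or of a GC trend left 0 calls, with DSC3 at log2 fold changes of 1.91 and 1.82, and leaving out any library left 0. The difference between compartments gave 1 lower call with no filter, and 0 to 7 calls, 0 to 7 higher and 0 to 1 lower, when a library was left out. The cause of these changes was not tested. A replicate block on the NLS column numbers gave 14 calls, 3 higher and 11 lower. Same-numbered NLS libraries deviated from their group means with a correlation of -0.02 over 20858 genes. With 2 libraries per group, this cannot settle whether they shared a culture or a batch. The OMM arms share only 1 number, so no block was possible there. The biological coefficient of variation was 0.958 at OMM and 0.166 at NLS, with 2 libraries per group.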
